A study of Mus musculus with 32 samples.

Results

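The liver of KO mice on the low-fat diet (LFD) was compared between the fasted and the fed state. KO mice lack medium-chain acyl-CoA dehydrogenase (MCAD), the product of Acadm. The 8 mice were taken by their labels alone, 4 fasted for 16 h (KO_LFD_Fasted) and 4 left on the diet (KO_LFD_Fed), out of 32 mice in the series. All 8 were male Acadm-knockout mice on the C57BL/6J background and had eaten the LFD for 6 weeks. The deletion is present in the fed controls too, so that the comparison is one of feeding state within the KO. The labels give ages of 14, 14, 10 and 10.5 for fasted mice 1 to 4 and of 10.5, 10.5, 10 and 16 for fed mice 1 to 4, with no unit. Total RNA of freeze-clamped liver was made into libraries that start at the 3′ end of polyadenylated transcripts, and the deposited values are read counts per gene. The other 6 groups (WT mice, and both genotypes on the high-fat diet, HFD) serve here only to ask whether the response differs from that of WT LFD or KO HFD mice. Their ages, again without a unit, were 12, 12, 7.5 and 11 for WT LFD fasted mice and 9, 11, 12 and 11 for WT LFD fed mice. They were 10, 11.5, 11.5 and 15 for KO HFD fasted mice and 10, 10, 11.5 and 10.5 for KO HFD fed mice.

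During a fast the liver changes from storing glucose and fat to releasing them. Insulin falls and glucagon rises, glycogen is broken down, and glucose is made from lactate, glycerol and amino acids. Fatty acids that arrive from adipose tissue activate the nuclear receptor PPARα, which raises genes of fatty acid uptake, of mitochondrial and peroxisomal β-oxidation, of ω-oxidation and of ketone body synthesis. The transcription factors SREBP1c and ChREBP, which drive fatty acid synthesis in the fed state, and SREBP2, which drives cholesterol synthesis, lose activity. MCAD performs the first step of mitochondrial β-oxidation for acyl chains of medium length, and the liver of these mice enters the fast without this enzyme. The step itself is not absent. The paper found that KO liver mitochondria still oxidised octanoyl-CoA, at a lower mean rate than WT. It proposes that the related dehydrogenases SCAD and LCAD may account for this.

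The 8 libraries held 2031053 to 4154949 counts. Values below are CPM, read counts scaled to a common library size after TMM normalisation over these 8 mice. The 4 values in a row belong to replicates 1 to 4 of a group. Acadm, the targeted gene, had 31 to 84 counts in the 8 KO LFD mice and 566 to 2280 counts in the 8 WT LFD mice, so that each library had the Acadm level of its genotype label. Its fasted to fed difference within the KO did not pass the test (log2 fold change 0.72, SE 0.33, adjusted p = 0.231). The 10 hepatocyte markers were all detected in each mouse and summed to 44645 to 65468 CPM (marker sums are normalised over all 32 mice). Fasted mouse 1 had the lowest hepatocyte sum and stood apart from its group, with a median correlation of 0.877 to the other fasted mice, where the other 7 mice had 0.934 to 0.952 within their own groups.

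Adrenal gland transcripts were present in fasted mice 3 and 4. Of 10 adrenal cortex markers, 10 and 9 were detected in these mice and 2 to 4 in the other 6, where Scarb1 and Fdx1, which hepatocytes express as well, made up nearly all counts, so that the list's sum overlapped (216 to 655 CPM in fasted and 376 to 414 CPM in fed mice). The adrenal cortex genes Star and Akr1b7 had 73 and 230 counts in fasted mouse 3 and 52 and 130 counts in fasted mouse 4, against 0 or 1 count of either gene in each of the other 6 mice. The 6 adrenal medulla markers summed to 79 and 132 counts in these 2 mice, with all 6 markers detected, and were all at 0 in the other 6. The 6 adipose markers were highest in the same 2 mice, with sums of 5.78, 5.72, 36.2 and 61.9 CPM in fasted mice 1 to 4 and 7.75 to 15.9 CPM in the fed mice. The summed Kupffer cell and macrophage markers were 566, 263, 271 and 223 CPM in the fasted and 422 to 459 CPM in the fed mice, and the summed cholangiocyte markers 50.9 to 59.6 and 65.0 to 83.8 CPM. In bulk liver, fewer cells of a type and less RNA per cell cannot be told apart. The part of these markers in the results below was not tested, and the values without fasted mice 3 and 4 are given where they change a call described here.

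**Figure D1:**
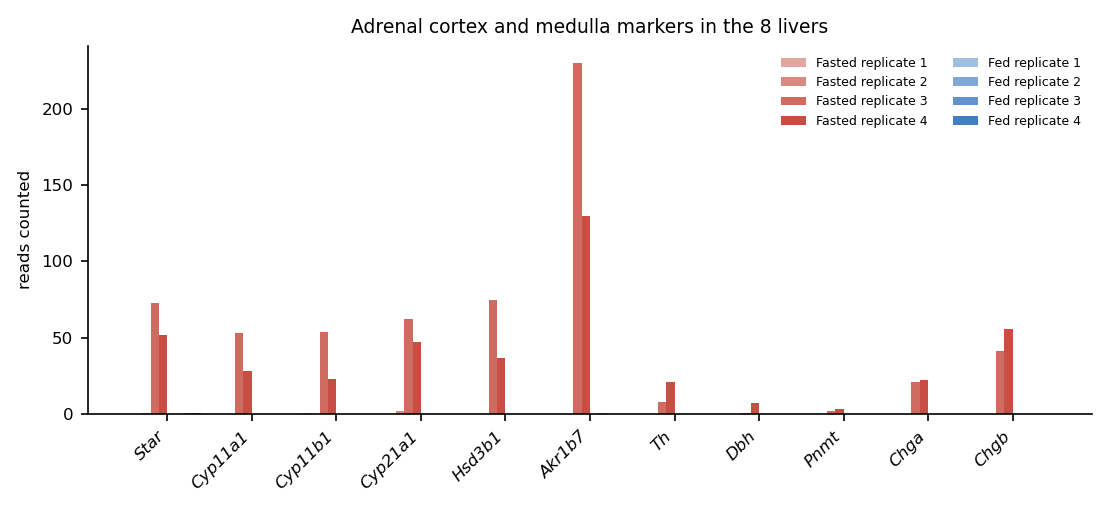
Reads counted (not normalised, linear axis) for adrenal cortex genes (Star to Akr1b7) and adrenal medulla genes (Th to Chgb), with 1 bar for each of the 4 fasted (red) and 4 fed (blue) KO LFD mice. Bars of more than 2 counts are seen in fasted mice 3 and 4 alone, where Akr1b7 had 230 and 130 counts.

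Fasting changed many genes in both directions. Of 9823 genes tested with edgeR's quasi-likelihood fit, 371 were higher (3.78%) and 388 lower (3.95%) in fasted mice at an adjusted p below 0.05. The 759 calls made up 7.73%, and an unadjusted p below 0.05 was reached by 1978 genes. The median log2 fold change (fasted over fed) of all genes tested was 0.00. A fold above 2 was reached by 273 of the higher and 305 of the lower genes, and a fold above 8 by 35 and 25. The CPM of the 4 fasted and 4 fed mice did not overlap for 707 of the 759 genes, against 15.0% of all genes tested (7.1% with the fasted mice above and 7.88% with them below). Calls and overlap come from the same values, so that the 707 are no second measure. Without fasted mice 3 and 4 the test called 594 genes, 489 of them among the 759, and 0 of the 759 changed direction.

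The genes with the smallest p among those that rose included enzymes and a carrier that act on fatty acids. Cyp4a31 (ENSMUSG00000028712, chromosome 4, 115563649 to 115579015), a fatty acid ω-hydroxylase, had 75.1, 64.7, 45 and 89.9 CPM in the fasted mice and 1.26, 1.67, 0.676 and 1.24 CPM in the fed mice. Every fasted mouse was thus far above every fed mouse, a 55.6-fold higher level (log2 fold change 5.80, SE 0.35, adjusted p = 2.7e-07). Mfsd2a (ENSMUSG00000028655, chromosome 4, 122946850 to 122961188), a transporter of lysophosphatidylcholine, had 397, 225, 275 and 449.95 CPM in the fasted mice and 15.5, 15.1, 21 and 19.2 CPM in the fed mice. Its groups did not overlap either, and its level was 19-fold higher (log2 fold change 4.25, SE 0.27, adjusted p = 3.0e-07). Acot1 (ENSMUSG00000072949, chromosome 12, 84009490 to 84018371), a cytosolic acyl-CoA thioesterase, had 1231, 1142, 472 and 996 CPM in the fasted mice and 33.7, 38.9, 18.3 and 24.5 CPM in the fed mice, with fasted mouse 3 the lowest of the fasted mice (33.4-fold higher, log2 fold change 5.06, SE 0.34, adjusted p = 5.4e-07). Por (ENSMUSG00000005514, chromosome 5, 135670033 to 135735326), which passes electrons to all microsomal P450 enzymes, had 306, 238, 354 and 397 CPM in the fasted mice and 24, 34.7, 27.7 and 39 CPM in the fed mice and was 10.3-fold higher (log2 fold change 3.37, SE 0.24, adjusted p = 7.4e-07). It overlaps an annotated gene on the other strand, Gm16061.

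Mat1a, the liver enzyme that makes S-adenosylmethionine, had 14886, 14025, 11007 and 17023 CPM in the fasted mice and 1485, 2016, 1752 and 2433 CPM in the fed mice. The lowest fasted mouse lay several times above the highest fed mouse (ENSMUSG00000037798, chromosome 14, 41105035 to 41124412, log2 fold change 2.89, SE 0.22, adjusted p = 1.4e-06). Cdkn1a, which encodes the cell cycle inhibitor p21, had 126, 105, 86.5 and 174 CPM in the fasted mice and 8.83, 13.4, 4.73 and 8.98 CPM in the fed mice (ENSMUSG00000023067, chromosome 17, 29090976 to 29100727, log2 fold change 3.78, SE 0.31, adjusted p = 2.9e-06). St3gal5, the synthase of the ganglioside GM3, had 1072, 536, 1142 and 1089 CPM in the fasted mice and 81.4, 65.6, 79.1 and 127 CPM in the fed mice (ENSMUSG00000056091, chromosome 6, 72097592 to 72154571, log2 fold change 3.44, SE 0.29, adjusted p = 3.2e-06), and it shares its strand with the overlapping Gm29438, so that reads could have been split between both. In all 3 genes the fasted and fed mice were apart, with fasted mouse 2 the lowest of the fasted mice for St3gal5 and mouse 3 for the other two.

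The largest increases started from almost no reads in the fed state. Cidec (ENSMUSG00000030278, chromosome 6, 113424634 to 113435760), which encodes a protein that enlarges lipid droplets, had 152, 134, 12.4 and 173 CPM in the fasted mice and 0.315, 0, 1.01 and 0 CPM in the fed mice (log2 fold change 8.27, SE 0.94, adjusted p = 1.8e-04). Fasted mouse 3 lay well below the other 3 fasted mice but above all fed mice. Gm15441 (ENSMUSG00000074398, chromosome 3, 96555765 to 96566801), annotated as antisense to Txnip, had 114, 75.6, 15.5 and 71.9 CPM in the fasted mice and 0.631, 0, 0 and 0 CPM in the fed mice (log2 fold change 8.34, SE 0.83, adjusted p = 4.9e-05), and its reads cannot be told from those of Txnip unless strand was used in counting, which is not given in the sources used here. The transcript 1810053B23Rik (ENSMUSG00000100277, chromosome 16, 93342504 to 93366668) had 0 counts in the 4 fed mice and 100 counts in the 4 fasted mice together, which is at least 36.3-fold higher with 3 counts over the fed group as the limit. E030018B13Rik (ENSMUSG00000095061, chromosome 7, 63916857 to 63920539) had 13.8, 38.2, 36.8 and 48.4 CPM in the fasted mice and 0, 0, 0 and 0.619 CPM in the fed mice (log2 fold change 7.33, SE 0.68, adjusted p = 9.3e-06) and overlaps Klf13 on the other strand. For such genes the fitted fold change depends on the prior count and is no measured ratio.

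Among genes that fell, Hsd3b5 (ENSMUSG00000038092, chromosome 3, 98618634 to 98630252), a steroid dehydrogenase of male mouse liver, had the smallest p. It had 4.75, 6.07, 6.73 and 3.84 CPM in the fasted mice and 199.9, 307, 251 and 283 CPM in the fed mice. The groups were far apart (48.3-fold lower, log2 fold change -5.59, SE 0.26, adjusted p = 1.3e-08), although Zfp697 overlaps it on the other strand and related Hsd3b copies could share its reads. Nudt7 (ENSMUSG00000031767, chromosome 8, 114133557 to 114154739), a peroxisomal hydrolase that cleaves coenzyme A and its esters, had 150.2, 146, 193 and 137 CPM in the fasted mice and 854, 1289, 928 and 928 CPM in the fed mice. Nudt7 was 6.4-fold lower (log2 fold change -2.68, SE 0.21, adjusted p = 2.1e-06). Aqp8 (ENSMUSG00000030762, chromosome 7, 123462291 to 123468004), a channel for water and small solutes, had 29.8, 24, 28 and 21.5 CPM in the fasted mice and 178, 135, 238 and 228 CPM in the fed mice. Aqp8 was 7.56-fold lower (log2 fold change -2.92, SE 0.23, adjusted p = 2.2e-06). Abca8a (ENSMUSG00000041828, chromosome 11, 110025634 to 110095978), a lipid transporter, had 46.2, 21.2, 50.2 and 29.6 CPM in the fasted mice and 333, 219.9, 309 and 224 CPM in the fed mice. Abca8a was 7.45-fold lower (log2 fold change -2.90, SE 0.28, adjusted p = 1.3e-05). In these genes, too, no fasted mouse reached the level of a fed one, as their choice requires. Chrna4 (ENSMUSG00000027577, chromosome 2, 181018380 to 181043546), a subunit of nicotinic acetylcholine receptors, had the most negative log2 fold change of the genes named by size, with 0, 0, 0.518 and 0 CPM in the fasted and 27.4, 8.36, 69 and 42.4 CPM in the fed mice (-8.07, adjusted p = 9.6e-05). Its fasted counts were 0 or 1, and the fed mice differed among themselves, with fed mouse 2 the lowest.

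**Figure D2:**
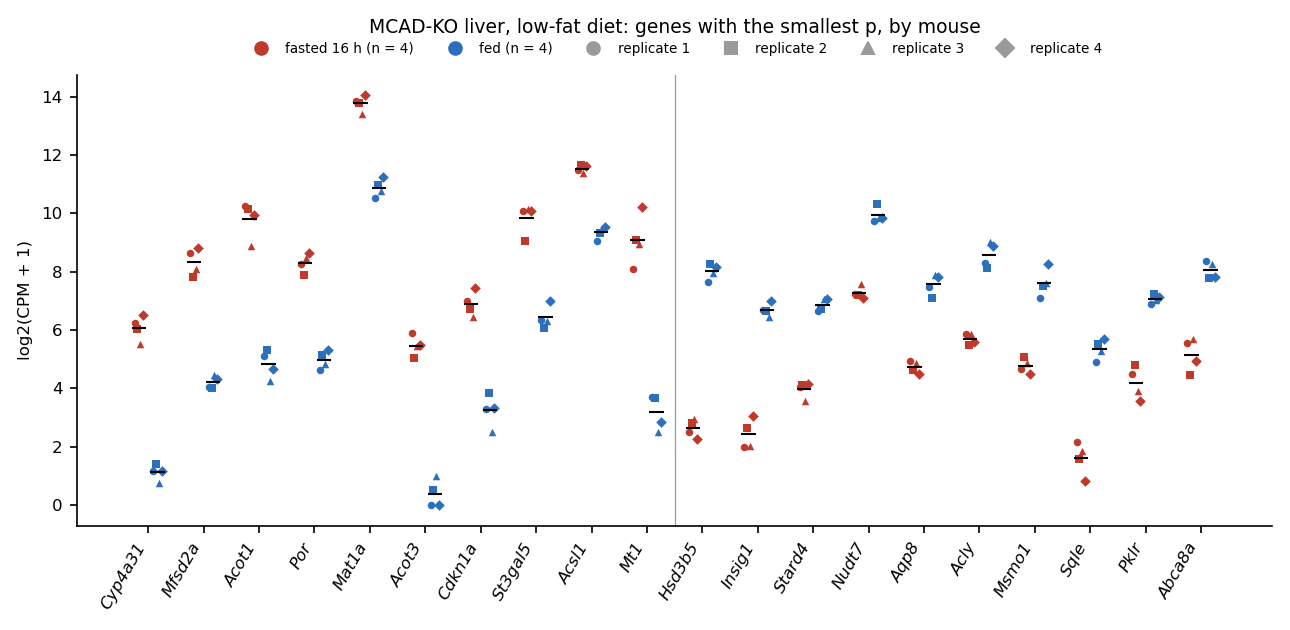
Expression as log2(CPM + 1) of the 10 genes that rose (left of the grey line) and the 10 that fell (right) with the smallest p, by mouse, with the replicate number as the symbol and the group mean as a bar. Fasted (red) and fed (blue) points do not overlap for any gene shown, as the choice of these genes requires, and Hsd3b5 lay between 3.84 and 6.73 CPM in fasted and between 199.9 and 307 CPM in fed mice.

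Genes were next read by function, in 33 lists of enzymes, carriers and regulators. The lists were described by how many members passed the test and by their median, to be read against 3.78% higher, 3.95% lower and a median of 0.00 for all genes tested. More members were higher than lower in the lists of lipid oxidation, and more were lower than higher in those of lipogenesis, of cholesterol synthesis and of the chaperones of the endoplasmic reticulum. No member of the tricarboxylic acid cycle or of the cytosolic heat shock list was called.

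**Figure D3:**
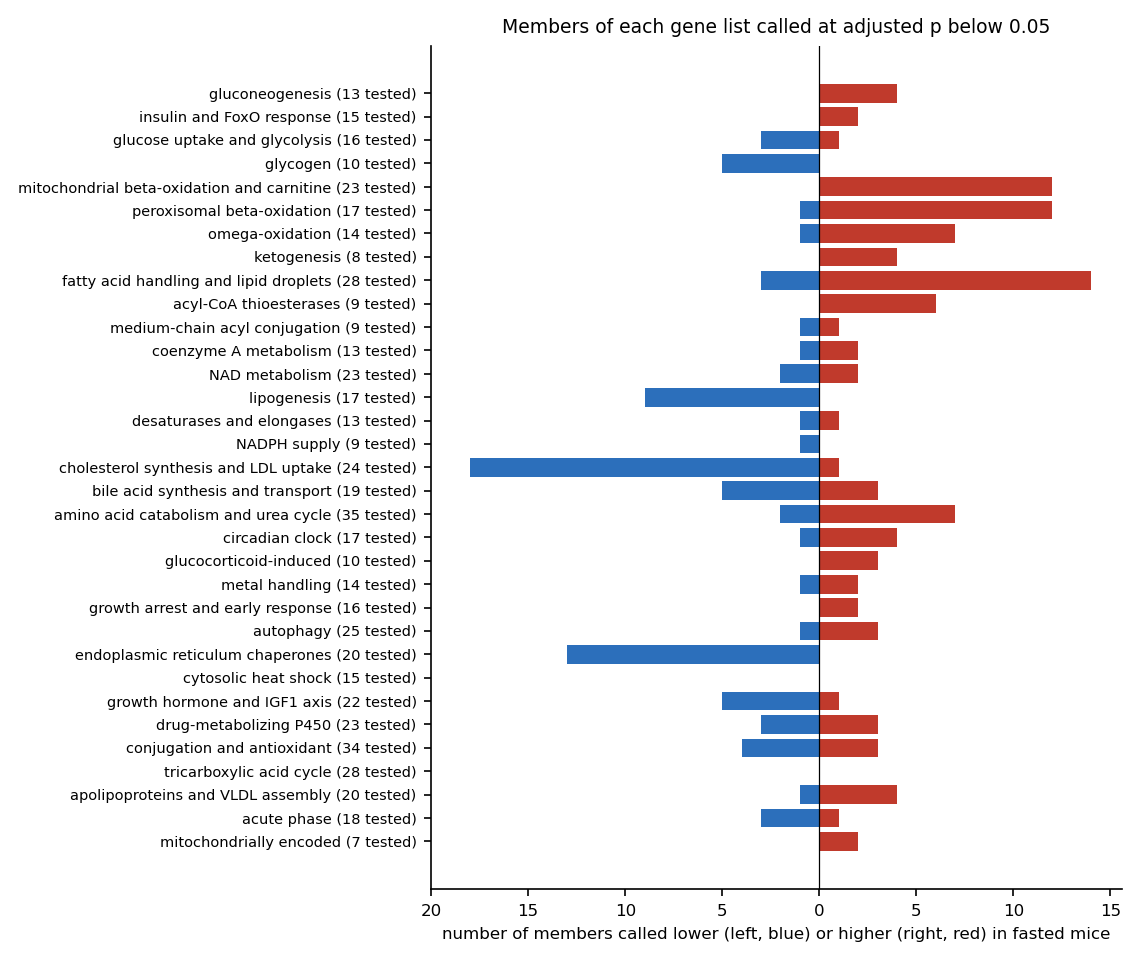
Number of members of each gene list called lower (blue, left) or higher (red, right) in fasted KO LFD mice, with the number of members tested beside the name of the list. The longest bar to the left is that of cholesterol synthesis and LDL uptake, with 18 of 24 members lower, and mitochondrial β-oxidation, with 12 of 23 members higher, is on the right.

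Transcripts of mitochondrial β-oxidation rose at its entry and in several of its later steps. Of 23 genes tested, 12 were higher and 0 lower (median 1.12), and with any one mouse left out 11 to 14 were higher. The carnitine steps carry fatty acids into the mitochondrion. Slc22a5, which brings carnitine into the cell, had 25, 25.8, 21.7 and 27.3 CPM in the fasted mice and 3.47, 2.09, 3.38 and 2.17 CPM in the fed mice. Slc22a5 was 8.82-fold higher (log2 fold change 3.14, SE 0.33, adjusted p = 3.2e-05). Cpt1a, the regulated acyltransferase of the outer membrane, had 479, 761, 415 and 643 CPM in the fasted mice and 144, 191, 153 and 178 CPM in the fed mice. Cpt1a was 3.46-fold higher (log2 fold change 1.79, SE 0.22, adjusted p = 1.3e-04). Crat, which forms acylcarnitines from short chains, had 80.7, 67.3, 60.1 and 65.3 CPM in the fasted mice and 8.2, 4.6, 6.76 and 15.8 CPM in the fed mice. Crat was 7.59-fold higher (log2 fold change 2.92, SE 0.32, adjusted p = 4.0e-05). For each of the 3 the lowest fasted mouse stood above the highest fed mouse. Slc25a20, the carnitine carrier of the inner membrane (log2 fold change 1.71, SE 0.21, adjusted p = 1.2e-04), Acsl1, the acyl-CoA synthetase (log2 fold change 2.17, SE 0.19, adjusted p = 4.8e-06), and Eci2, an isomerase for unsaturated chains (log2 fold change 1.56, SE 0.20, adjusted p = 1.8e-04), rose as well. Etfb (log2 fold change 0.62, adjusted p = 0.152), Hadh (0.39, adjusted p = 0.292) and Acaa2 (0.53, adjusted p = 0.161), which act on electron transfer and on the last steps for medium and short chains, did not pass the test.

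Peroxisomal β-oxidation, which shortens very long chains, had 12 of 17 members higher and 1 lower (median 1.06), with 9 to 12 higher when any one mouse was left out. Ehhadh, the bifunctional enzyme, had 151, 2092, 676 and 2584 CPM in the fasted mice and 90.2, 86.5, 68 and 73.1 CPM in the fed mice. Ehhadh was 17.3-fold higher (log2 fold change 4.11, SE 0.67, adjusted p = 0.00228). Fasted mouse 1 was close to the fed mice, and the other 3 lay far above them. Acaa1b, a thiolase with the near-identical copy Acaa1a, had 9537, 4277, 1553 and 3039 CPM in the fasted mice and 674, 675, 571 and 759.6 CPM in the fed mice. Acaa1b was 6.87-fold higher (log2 fold change 2.78, SE 0.44, adjusted p = 0.00190), and here fasted mouse 1 was the highest of all. Pex11a, a factor of peroxisome division, was also highest in fasted mouse 1, with 2171, 734, 862 and 1071 CPM in the fasted mice and 145, 199.9, 154 and 199.97 CPM in the fed mice (log2 fold change 2.79, SE 0.31, adjusted p = 6.3e-05). The 1 member that fell was Slc25a17, a carrier of the peroxisomal membrane (log2 fold change -1.09, SE 0.26, adjusted p = 0.0161), named after its value was seen, and its call was lost without fed mice 2 or 3 (highest adjusted p = 0.0581).

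The binding element of PPARα (AGGNCA and AGGTCA with 1 base of any kind between them) was searched on both strands in the 250 bases before the start of the genes of the peroxisomal list that rose. Of these, 9 had at least 1 promoter in the table (RefSeq, GRCm38.p6), and 0 of the 9 held the element, against 0.0999% of the 27025 genes of the table. No match says only that these letters are not in this window.

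The ω-oxidation list covers the hydroxylases that open fatty acids at their far end and the dehydrogenases that follow. It had 7 of 14 members higher and 1 lower (median 1.01). Cyp4a14 had 40814, 14928, 12491 and 28869 CPM in the fasted mice and 155, 606, 74.1 and 69.6 CPM in the fed mice. Cyp4a14 was 108-fold higher (log2 fold change 6.75, SE 0.80, adjusted p = 2.4e-04). Cyp4a10 had 3526, 3786, 1418 and 3607 CPM in the fasted mice and 61.5, 203, 41.6 and 74 CPM in the fed mice. Cyp4a10 was 32.6-fold higher (log2 fold change 5.03, SE 0.52, adjusted p = 1.1e-04). No fed mouse came near a fasted one in either gene, though fed mouse 2 was the highest of the fed mice in both. The Cyp4a genes are close copies, so that reads may have been divided among them. Aldh3a2, a fatty aldehyde dehydrogenase, rose (log2 fold change 1.92, SE 0.31, adjusted p = 0.00110), and Cyp4f14, a hydroxylase of another subfamily, fell, with 41, 53.9, 95.8 and 50 CPM in the fasted mice and 183, 276, 275 and 301 CPM in the fed mice (log2 fold change -2.11, SE 0.27, adjusted p = 1.4e-04).

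Ketone body synthesis was represented by 8 genes, 4 of them higher and 0 lower (median 0.75), with 2 (without fed mouse 1) to 5 higher when one mouse was left out. Slc16a1, a carrier of ketone bodies and lactate, had 99.3, 97.1, 62.7 and 79.9 CPM in the fasted mice and 34.1, 29.7, 23 and 31.3 CPM in the fed mice. Slc16a1 was 2.87-fold higher (log2 fold change 1.52, SE 0.22, adjusted p = 4.7e-04). Its groups did not overlap. Ppara, the receptor itself, rose (log2 fold change 1.18, SE 0.29, adjusted p = 0.0192) but lost its call without fed mice 1, 2 or 3 (highest adjusted p = 0.0843). Acat1 (log2 fold change 0.55, adjusted p = 0.225) and Bdh1 (-0.35, adjusted p = 0.383), the first and the last enzyme of the pathway, did not pass.

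Acyl-CoA thioesterases split acyl-CoA into a free fatty acid and coenzyme A. Of 9 genes tested 6 were higher and 0 lower (median 1.66), and this count was 6 with each mouse left out and without both mice with adrenal RNA. Acot2, the mitochondrial enzyme, had 337, 164, 44.5 and 97.2 CPM in the fasted mice and 7.57, 1.67, 4.73 and 7.43 CPM in the fed mice. Acot2 was 29.1-fold higher (log2 fold change 4.86, SE 0.62, adjusted p = 4.1e-04). Acot3, a peroxisomal enzyme (ENSMUSG00000021228, chromosome 12, 84052144 to 84060402), had 58.3, 32.1, 42.5 and 43.8 CPM in the fasted mice and 0, 0.418, 1.01 and 0 CPM in the fed mice (log2 fold change 6.83, SE 0.54, adjusted p = 2.1e-06). Acot4, also peroxisomal, had 33.7, 42, 33.1 and 33 CPM in the fasted mice and 9.15, 8.36, 4.06 and 8.36 CPM in the fed mice. Acot4 was 4.73-fold higher (log2 fold change 2.24, SE 0.30, adjusted p = 2.2e-04). Fed values were near 0 for Acot3 and low for Acot2, and in all 3 genes every fasted mouse was above every fed mouse. Acot1 to Acot4 lie side by side on chromosome 12 and are close copies, so that the split of reads among them is uncertain. Acot8 (log2 fold change 1.44, SE 0.24, adjusted p = 0.00147) and Acot12 (log2 fold change 1.66, SE 0.22, adjusted p = 2.3e-04) rose less, and Acot7 (log2 fold change 0.12, adjusted p = 0.877), Acot13 (0.09, adjusted p = 0.909) and Them4 (0.30, adjusted p = 0.497) did not pass.

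Conjugation of medium-chain acyl groups, coenzyme A metabolism and NAD metabolism had few members called. In medium-chain acyl conjugation, 1 of 9 genes was higher and 1 lower. Gm4952, a gene of the glycine N-acyltransferase family, rose from 126 to 209 CPM in the fed to 382 to 687 CPM in the fasted mice (log2 fold change 1.65, SE 0.24, adjusted p = 4.9e-04), and Keg1, of the same family, fell (log2 fold change -2.19, SE 0.30, adjusted p = 2.9e-04), while Glyat itself had a log2 fold change of 0.28, adjusted p = 0.505. In coenzyme A metabolism, 2 of 13 genes were higher and 1 lower. Pank1, which starts coenzyme A synthesis, had 579, 519.7, 412 and 587 CPM in the fasted mice and 214, 224, 297 and 320.4 CPM in the fed mice. Pank1 was 1.99-fold higher (log2 fold change 0.99, SE 0.21, adjusted p = 0.00665), with every fasted mouse above every fed mouse. Vnn1, a pantetheinase that degrades it, had 182, 145, 38.3 and 118 CPM in the fasted mice and 7.25, 17.6, 10.1 and 13.3 CPM in the fed mice. Vnn1 was 10.1-fold higher (log2 fold change 3.34, SE 0.43, adjusted p = 2.9e-04). The 1 gene that fell was Nudt7, given above. In NAD metabolism 2 of 23 genes were higher and 2 lower. Nnmt, which methylates nicotinamide (log2 fold change 1.51, SE 0.34, adjusted p = 0.0133), lost its call without fed mouse 3 (highest adjusted p = 0.0518), and both Nnmt and Tdo2, the first enzyme of tryptophan breakdown (log2 fold change 1.04, SE 0.23, adjusted p = 0.00951), lost it without fasted mice 3 and 4 (Nnmt 1.04, adjusted p = 0.155, and Tdo2 0.74, adjusted p = 0.129). Haao (log2 fold change -0.90, SE 0.21, adjusted p = 0.0155) and Parp1 (log2 fold change -0.68, SE 0.20, adjusted p = 0.0475), the 2 that were lower, also lost their calls without these mice (Haao -0.87, adjusted p = 0.114, and Parp1 -0.64, adjusted p = 0.195), and with single mice left out (Haao without fasted mouse 4 or fed mice 3 or 4 (highest adjusted p = 0.0694), Parp1 without fasted mice 2, 3 or 4 or fed mice 1, 2, 3 or 4 (highest adjusted p = 0.142)).

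Fatty acid handling and lipid droplets had 14 of 28 members higher and 3 lower (median 1.27), and 13 higher and 2 lower without fasted mice 3 and 4. Angptl4, a secreted inhibitor of lipoprotein lipase, had 247, 255, 234 and 275 CPM in the fasted mice and 13.2, 44.7, 22 and 32.5 CPM in the fed mice. Angptl4 was 9.02-fold higher (log2 fold change 3.17, SE 0.30, adjusted p = 1.2e-05). Plin5, a coat protein of lipid droplets in oxidative tissue, had 363, 164, 224 and 209 CPM in the fasted mice and 41.6, 41.8, 37.5 and 43.6 CPM in the fed mice. Plin5 was 5.81-fold higher (log2 fold change 2.54, SE 0.25, adjusted p = 1.3e-05). Mgll, the monoacylglycerol lipase, had 1975, 1152, 662 and 826 CPM in the fasted mice and 227, 249, 231 and 222 CPM in the fed mice. Mgll was 4.97-fold higher (log2 fold change 2.31, SE 0.29, adjusted p = 1.4e-04). The fed mice were close together in Plin5 and Mgll, and the fasted mice spread more, with mouse 1 the highest in both. Plin2, another coat protein (log2 fold change 1.71, SE 0.23, adjusted p = 2.8e-04), and Pnpla2, the triglyceride lipase ATGL (log2 fold change 2.05, SE 0.26, adjusted p = 1.4e-04), rose as well. Fgf21, a hormone of the fasted liver, had 16.4, 19.2, 24.3 and 99.9 CPM in the fasted mice and 7.25, 3.34, 5.75 and 17 CPM in the fed mice, with fasted mouse 4 far above the rest and the groups overlapping, and it did not pass (log2 fold change 2.23, SE 0.63, adjusted p = 0.0522). Fabp1 (log2 fold change -0.06, adjusted p = 0.931), the fatty acid binding protein of hepatocytes, did not pass either.

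**Figure D4:**
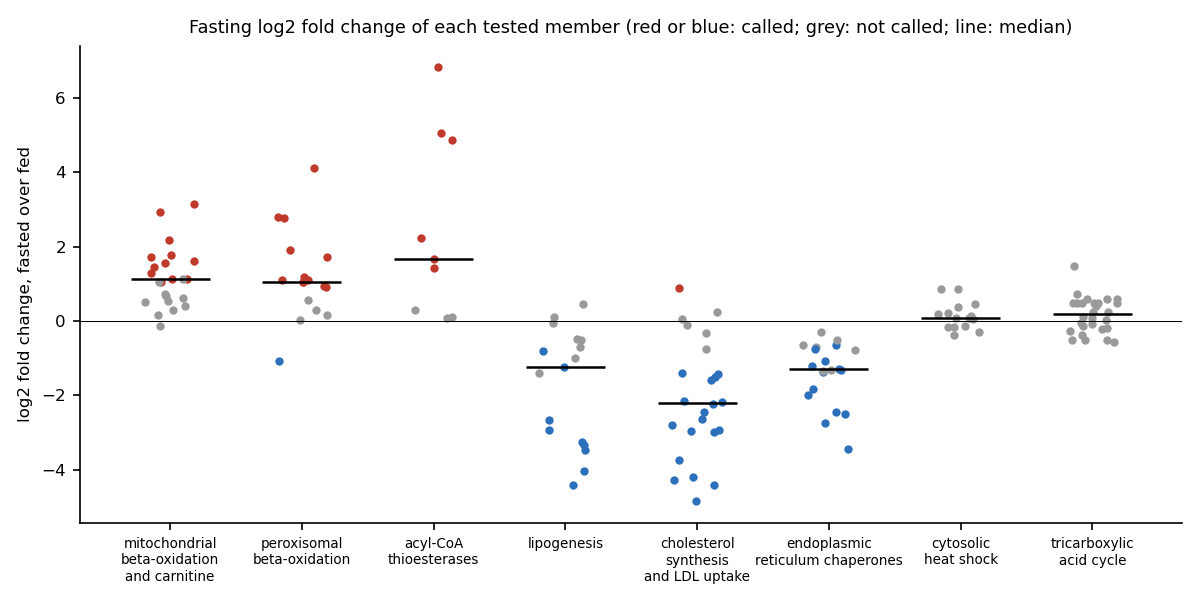
Log2 fold change (fasted over fed) of each tested member of 8 gene lists, with called genes in red (higher) or blue (lower), other genes in grey and the median of each list as a bar. Called members of β-oxidation lie above 0 except 1 peroxisomal gene, the called members of lipogenesis and of the chaperones of the endoplasmic reticulum lie below 0, and the cytosolic heat shock and tricarboxylic acid cycle lists hold no called gene.

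Transcripts of fatty acid synthesis fell. Of 17 genes of lipogenesis 9 were lower and 0 higher (median -1.24), with 8 to 10 lower when one mouse was left out and 9 without fasted mice 3 and 4. Fasn, the fatty acid synthase, had 125, 88, 118 and 181 CPM in the fasted mice and 958, 639.7, 1453 and 1841 CPM in the fed mice. Fasn was 9.56-fold lower (log2 fold change -3.26, SE 0.33, adjusted p = 2.4e-05). Acly (ENSMUSG00000020917, chromosome 11, 100476353 to 100528000), which supplies its acetyl-CoA from citrate, had 57.4, 43.8, 58 and 46.9 CPM in the fasted mice and 312, 281, 514 and 469 CPM in the fed mice. Acly was 7.66-fold lower (log2 fold change -2.94, SE 0.24, adjusted p = 2.9e-06). Srebf1, the gene of SREBP1, had 2.16, 23, 32.1 and 23.4 CPM in the fasted mice and 207, 177, 253 and 265 CPM in the fed mice. Srebf1 was 11.2-fold lower (log2 fold change -3.48, SE 0.49, adjusted p = 8.5e-04). In the 3 genes the highest fasted mouse remained below the lowest fed mouse, and for Srebf1 fasted mouse 1 was far below the other fasted mice. Thrsp (log2 fold change -4.03, SE 0.41, adjusted p = 5.3e-05) and Mid1ip1 (log2 fold change -3.33, SE 0.32, adjusted p = 1.3e-05), a pair of related proteins that promote fatty acid synthesis, fell, as did Aacs, the cytosolic acetoacetyl-CoA synthetase (ENSMUSG00000029482, chromosome 5, 125475814 to 125517410, log2 fold change -4.43, SE 0.72, adjusted p = 0.00221). Acss2, which activates acetate, fell too (log2 fold change -2.67, SE 0.36, adjusted p = 3.4e-04).

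Not each gene of fatty acid synthesis moved. Me1, malic enzyme (log2 fold change -0.51, adjusted p = 0.268), Dgat2, of triglyceride synthesis (-0.49, adjusted p = 0.121), and Nr1h3, the gene of LXRα (-0.07, adjusted p = 0.925), did not pass. Scd1, the main desaturase, had 5031, 3324, 6410.04 and 2219.8 CPM in the fasted mice and 6712, 2183, 9538 and 8165 CPM in the fed mice and overlapped between the groups (log2 fold change -0.65, SE 0.41, adjusted p = 0.446). Of 13 desaturases and elongases, Elovl6 was the 1 that fell (log2 fold change -1.96, SE 0.31, adjusted p = 0.00113) and Hacd3, a dehydratase of chain elongation, the 1 that rose (log2 fold change 1.16, SE 0.21, adjusted p = 0.00268). Of 9 genes of NADPH supply 1 was lower, Idh1 (log2 fold change -0.88, SE 0.25, adjusted p = 0.0397), a call lost without fasted mice 2 or 4 or fed mice 1, 2, 3 or 4 (highest adjusted p = 0.136).

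Cholesterol synthesis was the list with the largest share of lower members, 18 of 24, with 1 higher (median -2.20), and 18 were lower with each single mouse left out. Sqle (ENSMUSG00000022351, chromosome 15, 59315077 to 59331192), squalene epoxidase, had 3.45, 2.02, 2.59 and 0.768 CPM in the fasted mice and 29, 45.2, 37.5 and 50.5 CPM in the fed mice. Sqle was 18.5-fold lower (log2 fold change -4.21, SE 0.38, adjusted p = 7.7e-06). Fdps (ENSMUSG00000059743, chromosome 3, 89093588 to 89101959), which makes farnesyl diphosphate, had 0.863, 1.52, 2.59 and 0 CPM in the fasted mice and 22.4, 32.2, 30.8 and 58.2 CPM in the fed mice. Fdps was 28.8-fold lower (log2 fold change -4.85, SE 0.53, adjusted p = 4.7e-05). Neither gene showed overlap between the groups, and both were at a few counts or none in the fasted mice. Cyp51 (log2 fold change -2.79, SE 0.27, adjusted p = 1.3e-05), Msmo1 (ENSMUSG00000031604, chromosome 8, 64718139 to 64733792, log2 fold change -2.95, SE 0.27, adjusted p = 7.5e-06) and Sc5d (log2 fold change -2.17, SE 0.21, adjusted p = 1.4e-05), enzymes of the later sterol steps, fell as well.

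A regulator and a carrier of sterols fell with the enzymes. Insig1 (ENSMUSG00000045294, chromosome 5, 28071363 to 28078662), which retains SREBP in the endoplasmic reticulum and is itself an SREBP target, had 3.02, 5.31, 3.11 and 7.3 CPM in the fasted mice and 102, 99.1, 86.2 and 128 CPM in the fed mice. Insig1 was 21.4-fold lower (log2 fold change -4.42, SE 0.29, adjusted p = 4.0e-07). Stard4, a sterol carrier, had 15.5, 16.4, 10.9 and 16.9 CPM in the fasted mice and 101, 104, 132 and 133 CPM in the fed mice. Stard4 was 7.77-fold lower (log2 fold change -2.96, SE 0.22, adjusted p = 1.4e-06). Both had wide gaps between the groups. Insig2, the homologue of Insig1, was the 1 member that rose (log2 fold change 0.88, SE 0.19, adjusted p = 0.00794), named after its value was seen. Ebp (log2 fold change -0.32, adjusted p = 0.458) and Hsd17b7 (0.25, adjusted p = 0.657), enzymes of the list, did not pass. The sterol regulatory element TCACNCCAC, searched on both strands in the 250 bases before the start of each gene (RefSeq, GRCm38.p6), was present in 1 of 11 lower members with a promoter in the table (Hmgcs1), and in 1.22% of all 27025 genes of the table.

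Glucose uptake and glycolysis had 3 of 16 members lower and 1 higher (median -0.51). Pklr (ENSMUSG00000041237, chromosome 3, 89136142 to 89146784), the pyruvate kinase of liver, had 21.6, 26.8, 14 and 10.8 CPM in the fasted mice and 119, 151, 129.5 and 139 CPM in the fed mice. Pklr was 7.25-fold lower (log2 fold change -2.86, SE 0.27, adjusted p = 1.0e-05). Khk, which phosphorylates fructose, had 183, 149, 302 and 119.5 CPM in the fasted mice and 422, 434, 407 and 406 CPM in the fed mice. Khk was 2.22-fold lower (log2 fold change -1.15, SE 0.25, adjusted p = 0.00953). The highest fasted mouse was below the lowest fed mouse for both. Pklr overlaps Hcn3 on the other strand. Slc2a2, the glucose carrier of hepatocytes (log2 fold change -0.70, adjusted p = 0.119), did not pass.

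Glycogen metabolism had 5 of 10 members lower and 0 higher, with 5 lower in each omission of one mouse and without both mice with adrenal RNA. They act in synthesis and in breakdown alike. Ugp2, which makes UDP-glucose (log2 fold change -1.24, SE 0.25, adjusted p = 0.00567), Gbe1, the branching enzyme (log2 fold change -1.1, SE 0.22, adjusted p = 0.00504), Pygl, the phosphorylase (log2 fold change -1.24, SE 0.19, adjusted p = 7.1e-04), and the phosphatase subunits Ppp1r3c (log2 fold change -1.33, SE 0.24, adjusted p = 0.00213) and Ppp1r3b (log2 fold change -1.63, SE 0.35, adjusted p = 0.00962) were lower. Pygl, for example, had 155, 175, 211 and 142 CPM in the fasted mice and 364, 417, 404 and 429 CPM in the fed mice. Fasted and fed mice did not overlap in any of the 5. Gys2, the glycogen synthase of liver, had 68.6, 146, 84.4 and 143 CPM in the fasted mice and 57.4, 69.4, 71.3 and 59.7 CPM in the fed mice and did not pass (log2 fold change 0.78, SE 0.25, adjusted p = 0.0708).

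Gluconeogenesis had 4 of 13 members higher and 0 lower (median 0.65), a count that depended on fasted mouse 1. Pck1, the carboxykinase of the pathway, had 2146, 8544, 12138 and 12970.2 CPM in the fasted mice and 1369.6, 2478, 3567 and 1980.5 CPM in the fed mice. Pck1 was 3.81-fold higher (log2 fold change 1.93, SE 0.46, adjusted p = 0.0228). Fasted mouse 1 lay within the fed range, and the other 3 fasted mice were the highest of all. The call of Pck1 was lost without fasted mice 2, 3 or 4 or fed mice 1, 2 or 4 (highest adjusted p = 0.0979), and without fasted mice 3 and 4 (log2 fold change 1.18, adjusted p = 0.197). G6pc, the phosphatase that releases glucose, had 148, 664, 628 and 750.4 CPM in the fasted mice and 211, 459, 364 and 364 CPM in the fed mice and did not pass (log2 fold change 0.65, SE 0.40, adjusted p = 0.431). Its lowest value was again that of fasted mouse 1, without which G6pc passed (log2 fold change 0.96, adjusted p = 0.00301) and 9 of the 13 members were higher. Gpt2 (log2 fold change 1.41, SE 0.22, adjusted p = 7.1e-04), the mitochondrial alanine transaminase, and Ldha (log2 fold change 1.0, SE 0.22, adjusted p = 0.00972), which joins lactate and pyruvate, rose. Fbp1, the bisphosphatase, did not pass (log2 fold change -0.25, adjusted p = 0.563).

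The insulin and FoxO response list had 2 of 15 members higher (3 without fasted mouse 1 and 1 without fed mouse 2). Igfbp1, a secreted IGF binding protein that insulin represses, had 886, 578, 678 and 1999.6 CPM in the fasted mice and 140.3, 173, 124 and 362 CPM in the fed mice. Igfbp1 was 5.18-fold higher (log2 fold change 2.37, SE 0.44, adjusted p = 0.00538). Its groups did not overlap, and it lost its call without fasted mouse 1 (log2 fold change 2.44, adjusted p = 0.0783). Trib3, a pseudokinase that inhibits AKT, rose (log2 fold change 1.48, SE 0.40, adjusted p = 0.0316) but lost its call without fasted mouse 4 or fed mice 2, 3 or 4 (highest adjusted p = 0.121) and without both mice with adrenal RNA (log2 fold change 1.27, adjusted p = 0.180). Foxo1 (log2 fold change 0.48, adjusted p = 0.204), Klf15 (0.27, adjusted p = 0.671) and Trib1 (0.55, adjusted p = 0.276) did not pass.

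Of 35 genes of amino acid catabolism and the urea cycle 7 were higher and 2 lower (median 0.23), and 13 were higher without fasted mouse 1. Asl, a urea cycle lyase, had 258, 589, 414 and 372 CPM in the fasted mice and 93, 116, 87.9 and 116 CPM in the fed mice. Asl was 3.95-fold higher (log2 fold change 1.98, SE 0.25, adjusted p = 1.3e-04). Arg1, the last enzyme of the cycle, had 2092, 3827, 2580.1 and 3004 CPM in the fasted mice and 1089, 1122, 1214 and 1199 CPM in the fed mice. Arg1 was 2.49-fold higher (log2 fold change 1.31, SE 0.20, adjusted p = 8.1e-04). Sdsl, a serine dehydratase-like enzyme, had 33.7, 29.3, 17.6 and 47.3 CPM in the fasted mice and 6.94, 11.3, 7.1 and 6.19 CPM in the fed mice. Sdsl was 4.09-fold higher (log2 fold change 2.03, SE 0.34, adjusted p = 0.00147). The groups were apart in all 3, and fasted mouse 1 was the lowest fasted mouse for Asl and Arg1. Aass, of lysine breakdown (log2 fold change 1.59, SE 0.28, adjusted p = 0.00197), and Hpd, of tyrosine breakdown (log2 fold change 1.13, SE 0.18, adjusted p = 0.00116), also rose. The 2 lower members, named after their values were seen, were Otc, another urea cycle enzyme (log2 fold change -0.66, SE 0.19, adjusted p = 0.0412), and Gcat, of threonine breakdown (log2 fold change -1.06, SE 0.22, adjusted p = 0.00641), and the call of Otc was lost without fasted mouse 4 or fed mice 1, 2, 3 or 4 (highest adjusted p = 0.136) and without both mice with adrenal RNA (-0.66, adjusted p = 0.127). Cps1, the first enzyme of the cycle, had 713, 3650.1, 2719 and 3315 CPM in the fasted mice and 2044, 2174, 2372 and 2339 CPM in the fed mice (log2 fold change 0.22, adjusted p = 0.810), and Tat, of tyrosine breakdown, had 76, 1442, 1597 and 3079.7 CPM in the fasted mice and 941, 1065, 1452 and 1614 CPM in the fed mice (log2 fold change 0.29, adjusted p = 0.871). In both genes fasted mouse 1 was the lowest of the 8 mice.

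Transcripts of chaperones of the endoplasmic reticulum fell in fasted mice. These proteins fold and check secreted proteins, and many of their genes are induced through ATF6 and XBP1 when the load of unfolded protein is high. Of 20 genes tested 13 were lower and 0 higher, and all 20 had a negative log2 fold change (median -1.31). Without fasted mice 3 and 4 the count was 12. It was 8 without fasted mouse 2 and 18 without fasted mouse 1. The cytosolic heat shock list had 0 of 15 members higher or lower (median 0.09).

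The promoters of 6 of the lower members carried the endoplasmic reticulum stress element, CCAAT and CCACG with 9 bases of any kind between them, the site of ATF6 together with NF-Y. It was searched on both strands in the 250 bases before the annotated start. Of the 13 lower members 11 had a promoter in the RefSeq table, and 6 of these held a match, against 0.13% of the 27025 genes of the table. Of all 32851 promoters 37 held one (0.113%). Members of the list that were not called were not counted apart, so that the share cannot be tied to the fall. The 6 are shown because they are the lower members in which this motif was found, each 5′ to 3′ on the strand of its gene in GRCm38.p6, with the match in capitals on whichever strand it lies. Their coordinates are chr2:34771840-34772089, plus strand for Hspa5, chr10:86705445-86705694, minus strand for Hsp90b1, chr8:84846932-84847181, minus strand for Calr, chr12:17266339-17266588, plus strand for Pdia6, chr15:88819396-88819645, plus strand for Creld2, and chr19:6046326-6046575, plus strand for Syvn1. A match is a description of the sequence and not evidence of binding.
Hspa5: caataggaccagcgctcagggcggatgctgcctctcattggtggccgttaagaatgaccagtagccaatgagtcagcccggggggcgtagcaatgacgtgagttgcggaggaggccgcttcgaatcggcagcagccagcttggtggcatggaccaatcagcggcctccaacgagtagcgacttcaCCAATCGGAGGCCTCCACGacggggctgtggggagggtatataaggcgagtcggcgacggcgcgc
Hsp90b1: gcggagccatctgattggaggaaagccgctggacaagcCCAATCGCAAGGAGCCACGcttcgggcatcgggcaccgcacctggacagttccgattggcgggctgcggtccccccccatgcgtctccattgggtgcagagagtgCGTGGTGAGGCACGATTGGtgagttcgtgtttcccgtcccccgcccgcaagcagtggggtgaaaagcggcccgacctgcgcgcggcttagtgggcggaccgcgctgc
Calr: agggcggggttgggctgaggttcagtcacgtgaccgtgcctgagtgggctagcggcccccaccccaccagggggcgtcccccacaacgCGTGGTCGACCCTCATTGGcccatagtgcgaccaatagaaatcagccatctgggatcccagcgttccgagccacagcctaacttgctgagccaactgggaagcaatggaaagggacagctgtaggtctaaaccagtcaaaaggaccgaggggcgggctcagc
Pdia6: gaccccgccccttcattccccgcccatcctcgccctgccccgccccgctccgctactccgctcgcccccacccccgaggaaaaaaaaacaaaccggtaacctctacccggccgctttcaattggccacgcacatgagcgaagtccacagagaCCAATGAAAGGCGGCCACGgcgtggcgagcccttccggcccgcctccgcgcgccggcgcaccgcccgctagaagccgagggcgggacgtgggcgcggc
Creld2: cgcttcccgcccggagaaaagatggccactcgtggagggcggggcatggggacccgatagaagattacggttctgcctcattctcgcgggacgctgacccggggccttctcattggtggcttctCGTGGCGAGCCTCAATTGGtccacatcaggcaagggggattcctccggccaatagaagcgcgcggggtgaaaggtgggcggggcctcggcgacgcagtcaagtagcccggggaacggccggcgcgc
Syvn1: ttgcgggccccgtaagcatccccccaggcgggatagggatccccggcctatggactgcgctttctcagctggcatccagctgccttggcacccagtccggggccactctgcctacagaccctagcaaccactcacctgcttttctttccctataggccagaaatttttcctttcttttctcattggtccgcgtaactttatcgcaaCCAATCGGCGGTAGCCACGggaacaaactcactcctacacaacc

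Hsp90b1 held 2 matches, and the other 5 promoters 1 each. Pdia6, a disulfide isomerase, had 152, 94.8, 188 and 191 CPM in the fasted mice and 599, 674, 554 and 684 CPM in the fed mice. Pdia6 was 4.01-fold lower (log2 fold change -2.0, SE 0.23, adjusted p = 7.2e-05). Hsp90b1, the chaperone GRP94, had 334, 569, 528 and 579 CPM in the fasted mice and 1142, 1093, 896 and 1532 CPM in the fed mice. Hsp90b1 was 2.32-fold lower (log2 fold change -1.21, SE 0.23, adjusted p = 0.00322). Calr, calreticulin, had 318, 215, 207 and 324 CPM in the fasted mice and 612, 799.8, 558 and 769 CPM in the fed mice. Calr was 2.57-fold lower (log2 fold change -1.36, SE 0.22, adjusted p = 0.00102). The fasted and fed mice were apart in these 3 genes, and fed mouse 3 was the lowest of the fed mice in each. Hspa5, the chaperone BiP, had 2249, 893, 1304 and 1354 CPM in the fasted mice and 3976, 3710.3, 1724 and 4908 CPM in the fed mice. Hspa5 was 2.47-fold lower (log2 fold change -1.30, SE 0.32, adjusted p = 0.0205), and fasted mouse 1 lay above fed mouse 3. Creld2 (log2 fold change -2.44, SE 0.55, adjusted p = 0.0156) and Syvn1, a ubiquitin ligase of this membrane (log2 fold change -1.84, SE 0.48, adjusted p = 0.0342), had 50.5, 56.4, 11.5 and 93.8 CPM and 294, 352, 121 and 431 CPM in the fed mice, so that fed mouse 3 was lowest again and lay within the fasted range. Hspa5, Creld2 and Syvn1 are named for the motif and were chosen after their values were seen. Creld2 lost its call without fasted mice 1 or 2 (highest adjusted p = 0.0925), Syvn1 without fasted mice 2 or 3 or fed mice 1, 2 or 4 (highest adjusted p = 0.138), and Hspa5 without fasted mice 2, 3 or 4 or fed mice 1, 2 or 4 (highest adjusted p = 0.0791) and without both mice with adrenal RNA (log2 fold change -1.18, adjusted p = 0.173).

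Among the members without a match, Sdf2l1, a partner of BiP-bound cochaperones, had 1.29, 5.06, 10.4 and 4.61 CPM in the fasted mice and 78.2, 61.9, 24.7 and 62.5 CPM in the fed mice. Sdf2l1 was 10.9-fold lower (log2 fold change -3.44, SE 0.46, adjusted p = 3.3e-04). Hyou1, which exchanges nucleotide on BiP, had 5.61, 4.55, 8.28 and 2.69 CPM in the fasted mice and 33.7, 59, 15.2 and 30.6 CPM in the fed mice. Hyou1 was 6.66-fold lower (log2 fold change -2.73, SE 0.43, adjusted p = 9.2e-04). Dnajb11, a cochaperone, had 47.5, 73.3, 72.5 and 64.9 CPM in the fasted mice and 163, 167, 101 and 208 CPM in the fed mice. Dnajb11 was 2.47-fold lower (log2 fold change -1.31, SE 0.24, adjusted p = 0.00251). Their groups did not overlap. Canx, calnexin, had 323, 203, 225 and 269.7 CPM in the fasted mice and 375, 426, 365 and 417 CPM in the fed mice, apart from the fed mice, but did not pass (log2 fold change -0.63, SE 0.19, adjusted p = 0.0627). Sel1l (log2 fold change -0.78, adjusted p = 0.0605) and Herpud1 (-0.31, adjusted p = 0.645), of protein degradation at this membrane, did not pass. In the cytosolic list, Hsp90ab1 (log2 fold change 0.87, adjusted p = 0.185), Hspa8 (0.46, adjusted p = 0.564) and Dnaja1 (0.09, adjusted p = 0.866) did not pass.

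The growth hormone and IGF1 axis, which keeps male-specific liver genes high, had 5 of 22 members lower and 1 higher (median -0.41). Besides Hsd3b5 these were Serpina12, which encodes the adipokine vaspin, with 30.6, 21.2, 22.8 and 8.07 CPM in the fasted mice and 97.4, 141, 145 and 218 CPM in the fed mice (log2 fold change -2.87, SE 0.35, adjusted p = 1.3e-04). The others were Ghr, the receptor (log2 fold change -1.1, SE 0.25, adjusted p = 0.0133), Cish, an inhibitor that STAT5 induces (log2 fold change -2.60, SE 0.60, adjusted p = 0.0156), and Selenbp2 (log2 fold change -3.19, SE 0.58, adjusted p = 0.00462). The groups overlapped for Cish and were apart for the others. Without fasted mouse 1 the calls of Cish (log2 fold change -2.54, adjusted p = 0.0813) and Selenbp2 (-3.06, adjusted p = 0.110) were lost, as was that of Ghr without fasted mouse 4 or fed mouse 4 (highest adjusted p = 0.0557). Cish lost its call without fed mouse 2 too, and Selenbp2 without fasted mouse 2. Igf1 had 719.8, 799, 967 and 984 CPM in the fasted mice and 649, 1091, 772 and 899 CPM in the fed mice and did not pass (log2 fold change 0.02, SE 0.21, adjusted p = 0.968).

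Bile acid genes moved in both directions, 3 of 19 higher and 5 lower. Cyp7a1, the rate-limiting enzyme of bile acid synthesis, had 143, 348, 212 and 96.1 CPM in the fasted mice and 9.15, 42.6, 6.42 and 35 CPM in the fed mice. Cyp7a1 was 8.66-fold higher (log2 fold change 3.11, SE 0.57, adjusted p = 0.00514). Cyp8b1, which adds the hydroxyl group of cholic acid, had 1364, 738, 673 and 873 CPM in the fasted mice and 121, 309, 184 and 272 CPM in the fed mice. Cyp8b1 was 4.12-fold higher (log2 fold change 2.04, SE 0.30, adjusted p = 6.0e-04). Both were higher in each fasted mouse than in any fed mouse, and the call of Cyp7a1 was lost without fasted mouse 1 (log2 fold change 3.25, adjusted p = 0.0678). Abcb4, which moves phosphatidylcholine into bile, rose (log2 fold change 1.52, SE 0.22, adjusted p = 4.7e-04), and Abcb11, the bile salt export pump, fell, with 177, 160.3, 222 and 189 CPM in the fasted mice and 548, 488, 548 and 498 CPM in the fed mice (log2 fold change -1.48, SE 0.18, adjusted p = 1.3e-04). Nr0b2, the repressor SHP (log2 fold change -1.43, SE 0.28, adjusted p = 0.00452), Slco1a1, an uptake carrier (log2 fold change -1.04, SE 0.19, adjusted p = 0.00316), and Akr1c6, a steroid dehydrogenase (log2 fold change -1.98, SE 0.27, adjusted p = 2.5e-04), fell too. Among the apolipoproteins and factors of VLDL assembly, 4 of 20 were higher and 1 lower. Apoa4 had 2428, 3269, 381 and 1485 CPM in the fasted mice and 118, 217, 171 and 173 CPM in the fed mice. Apoa4 was 11.2-fold higher (log2 fold change 3.48, SE 0.52, adjusted p = 0.00122), with fasted mouse 3 the lowest of the fasted mice. Angptl8, an inhibitor of lipoprotein lipase that feeding induces, had 5.18, 1.01, 3.11 and 5.76 CPM in the fasted mice and 33.7, 39.3, 23.7 and 51.4 CPM in the fed mice. Angptl8 was 10.1-fold lower (log2 fold change -3.34, SE 0.43, adjusted p = 1.8e-04). Apob (log2 fold change 0.80, adjusted p = 0.0269), Mttp (0.86, adjusted p = 0.0203) and Apoa5 (0.70, adjusted p = 0.0456) were higher. Apob lost its call without fasted mouse 4 or fed mice 1, 2 or 3 (highest adjusted p = 0.117), Mttp without fasted mice 2 or 4 or fed mice 1, 2 or 3 (highest adjusted p = 0.0873), and Apoa5 without fasted mice 2, 3 or 4 or fed mice 1, 2, 3 or 4 (highest adjusted p = 0.154) and without both mice with adrenal RNA (log2 fold change 0.51, adjusted p = 0.252).

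Of 23 genes of the P450 list, which holds the reductase Por as well, 3 were higher and 3 lower. Besides Por, given above, Cyp3a13 rose (log2 fold change 1.1, SE 0.20, adjusted p = 0.00230), as did Cyp2e1 (log2 fold change 0.98, SE 0.27, adjusted p = 0.0362), whose call was lost without fasted mice 2, 3 or 4 or fed mice 1, 2, 3 or 4 (highest adjusted p = 0.140) and without both mice with adrenal RNA (log2 fold change 0.76, adjusted p = 0.245). Cyp2c70, which makes muricholic acid in mice, had 63.9, 28.1, 136 and 99.1 CPM in the fasted mice and 451, 640.1, 654 and 823 CPM in the fed mice. Cyp2c70 was 7.91-fold lower (log2 fold change -2.98, SE 0.39, adjusted p = 3.7e-04), with no overlap. Cyp2c67 (log2 fold change -1.21, SE 0.24, adjusted p = 0.00533) and Cyp1a2 (log2 fold change -0.75, SE 0.22, adjusted p = 0.0499) were lower. The call of Cyp1a2 was lost without fasted mice 2 or 4 or fed mice 1, 2, 3 or 4 (highest adjusted p = 0.159) and without both mice with adrenal RNA (log2 fold change -0.86, adjusted p = 0.0652). In conjugation and antioxidant defence, 3 of 34 genes were higher and 4 lower. Gstm3 (log2 fold change -2.96, SE 0.45, adjusted p = 7.2e-04) and Gsta3 (log2 fold change -1.31, SE 0.29, adjusted p = 0.00922), both glutathione transferases with close copies, and Gclc, the rate-limiting subunit of glutathione synthesis (log2 fold change -1.09, SE 0.23, adjusted p = 0.00761), fell, and Srxn1, sulfiredoxin, rose (log2 fold change 1.56, SE 0.30, adjusted p = 0.00355). Of 18 acute phase genes 1 was higher, Hp (haptoglobin, log2 fold change 1.17, SE 0.20, adjusted p = 0.00159), and 3 were lower, namely Saa2 (log2 fold change -1.81, SE 0.42, adjusted p = 0.0138), Fgg (log2 fold change -0.73, SE 0.19, adjusted p = 0.0257) and Fga (log2 fold change -0.62, SE 0.17, adjusted p = 0.0386). Saa2 lost its call without fasted mouse 4 or fed mouse 4 (highest adjusted p = 0.0641), Fgg without fasted mouse 3 or fed mice 1, 2, 3 or 4 (highest adjusted p = 0.106), and Fga without fasted mice 2 or 4 or fed mice 1, 2, 3 or 4 (highest adjusted p = 0.130). Without fasted mice 3 and 4 together Saa2 (log2 fold change -1.74, adjusted p = 0.0972) and Fga (-0.75, adjusted p = 0.0707) lost theirs.

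The glucocorticoid-induced list had 3 of 10 members higher (median 0.76), and it was one of the lists that depended on the mice with adrenal RNA. Fkbp5, a cochaperone of the glucocorticoid receptor, had 16.4, 48.1, 99.9 and 124 CPM in the fasted mice and 4.73, 8.78, 2.37 and 16.7 CPM in the fed mice. Fkbp5 was 8.74-fold higher (log2 fold change 3.13, SE 0.63, adjusted p = 0.00898). The 2 highest values were those of fasted mice 3 and 4, and the groups overlapped. Per1, a clock gene that glucocorticoids induce, had 20.7, 10.6, 34.2 and 52.6 CPM in the fasted mice and 2.52, 5.02, 2.71 and 2.17 CPM in the fed mice. Per1 was 9.54-fold higher (log2 fold change 3.25, SE 0.49, adjusted p = 6.6e-04) and again highest in these mice. Without them Per1 kept its call (log2 fold change 2.33, adjusted p = 0.0218), Fkbp5 (1.99, adjusted p = 0.0927) and Cebpd (1.73, adjusted p = 0.143) did not, and the median of the list was 0.08. Tat and Klf9 (log2 fold change 0.46, adjusted p = 0.256), also in the list, did not pass. Of 17 clock genes 4 were higher and 1 lower. Apart from Per1 these were Usp2 (log2 fold change 2.22, SE 0.49, adjusted p = 0.0106), Hlf (log2 fold change 0.89, SE 0.22, adjusted p = 0.0213) and Tef (log2 fold change 1.16, SE 0.31, adjusted p = 0.0303) on the higher side and Bhlhe40 on the lower (log2 fold change -1.44, SE 0.39, adjusted p = 0.0329). Usp2 (log2 fold change 2.1, adjusted p = 0.0956) and Hlf (0.58, adjusted p = 0.238) lost their calls without fasted mice 3 and 4, and single mice decided 3 calls, Hlf being lost without fasted mice 3 or 4 or fed mice 2, 3 or 4 (highest adjusted p = 0.0864), Tef without fasted mouse 3 or fed mice 1, 2, 3 or 4 (highest adjusted p = 0.121), and Bhlhe40 without fasted mice 2 or 4 or fed mice 1, 2, 3 or 4 (highest adjusted p = 0.0978).

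Metallothioneins rose more than any other gene of the metal list. Mt1 (ENSMUSG00000031765, chromosome 8, 94179082 to 94180327) had 273, 546, 496 and 1183 CPM in the fasted mice and 12, 11.7, 4.73 and 6.19 CPM in the fed mice. Mt1 was 72.3-fold higher (log2 fold change 6.18, SE 0.50, adjusted p = 9.3e-06). Mt2 had 91.9, 214, 182 and 572 CPM in the fasted mice and 4.41, 10.9, 3.38 and 6.19 CPM in the fed mice. Mt2 was 43.3-fold higher (log2 fold change 5.43, SE 0.59, adjusted p = 1.3e-04). Fasted mouse 4 was the highest in both, and the groups were far apart. They were the 2 of 14 metal genes called higher, and Slc30a10, a manganese exporter, was the 1 called lower (log2 fold change -0.86, SE 0.21, adjusted p = 0.0182), a call lost without fasted mice 3 and 4 (log2 fold change -0.81, adjusted p = 0.0791) and without fasted mice 2 or 3 or fed mice 1, 3 or 4 (highest adjusted p = 0.0584). Hamp, hepcidin, did not pass (log2 fold change 0.28, adjusted p = 0.662). The core of the metal response element, TGCACNC or TGCGCNC on either strand, was found in the promoters of all 3 called genes, at 1 place in Mt1, 3 in Mt2 and 2 in Slc30a10 (overlapping matches counted once). It was also present in 21.4% of all promoters and in 23.8% of all 27025 genes of the table.

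In the list of growth arrest and early response genes, Cdkn1a and Gadd45b (log2 fold change 3.20, SE 0.69, adjusted p = 0.00881) were the 2 of 16 that rose, and Gadd45b lost its call without fasted mice 3 and 4 (log2 fold change 3.0, adjusted p = 0.0983). Autophagy had 3 of 25 genes higher and 1 lower. Bnip3, a receptor for mitophagy, had 293, 399, 244 and 368 CPM in the fasted mice and 84.8, 94.5, 73 and 105 CPM in the fed mice. Bnip3 was 3.65-fold higher (log2 fold change 1.87, SE 0.21, adjusted p = 6.2e-05), with a wide gap between the groups. Map1lc3b (log2 fold change 0.82, adjusted p = 0.0210) and Wipi1 (0.83, adjusted p = 0.0496) were higher and Ulk2 (-0.70, adjusted p = 0.0286) lower. Map1lc3b lost its call without fed mice 1, 2, 3 or 4 (highest adjusted p = 0.0801), Wipi1 without fasted mice 2 or 4 or fed mice 1, 2, 3 or 4 (highest adjusted p = 0.159), and Ulk2 without fasted mice 3 or 4 or fed mice 1, 2, 3 or 4 (highest adjusted p = 0.0982) and without both mice with adrenal RNA (log2 fold change -0.61, adjusted p = 0.178). The tricarboxylic acid cycle had 0 of 28 genes called (median 0.17), and 6 higher without fasted mouse 1. Of 7 genes encoded by mitochondrial DNA, mt-Nd2 (log2 fold change 0.80, SE 0.21, adjusted p = 0.0300) and mt-Nd5 (log2 fold change 0.75, SE 0.18, adjusted p = 0.0187) were higher, and fasted mouse 1 held the highest value of both. The call of mt-Nd2 was lost without fed mice 1, 2, 3 or 4 (highest adjusted p = 0.109), and that of mt-Nd5 without fasted mouse 4 or fed mice 1 or 2 (highest adjusted p = 0.0906) and without both mice with adrenal RNA (log2 fold change 0.79, adjusted p = 0.0589).

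The first of the 2 comparisons with other groups asked whether fasting acts differently in KO than in WT mice on the same diet. The difference of the 2 fasting effects was tested in one fit over 16 mice, in which no mouse serves both effects. WT LFD fed mouse 2 stood apart in its markers, with 1370 CPM of stellate cell, 333 CPM of cholangiocyte and 308 CPM of proliferating cell markers, against at most 615, 97.6 and 16.0 CPM in the other WT LFD mice, and with the lowest hepatocyte sum of them (40354 CPM). Of 10757 genes tested 0 passed (0.0%), and 478 had an unadjusted p below 0.05. DESeq2 and limma voom also called 0, and their unadjusted p was below 0.05 for 644 and 465 genes. Without WT LFD fed mouse 2 edgeR called 0 as well, with 392 genes at an unadjusted p below 0.05. A difference that misses the threshold does not show that the effects are alike. In WT LFD mice on their own, 411 of 10095 genes were higher (4.07%) and 316 lower (3.13%), 7.2% in all. By their labels, all WT LFD fed mice were in sequencing lane 8, and WT LFD fasted mice 1 to 4 in lanes 7, 7, 8 and 8. The part of lane in this WT effect was not tested. The calls of both genotypes shared 381 genes, each in the same direction, which is 50.2% of the KO and 52.4% of the WT calls. Of the 753 KO calls that could be tested in WT, 739 had the same sign there, and the share over all genes was not computed. In the test of the difference, 91 of the 759 KO calls (12.0%) had an unadjusted p below 0.05, against 4.44% of all genes. The calls come from the same KO mice, so that this share is no independent measure.

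The 5 genes with the smallest p for a difference from WT did not pass. Acot3 had 60, 33, 43.6 and 45 CPM in KO fasted mice, 0, 0.425, 1.04 and 0 CPM in KO fed mice, 15, 18.6, 33.9 and 35 CPM in WT fasted mice and 1.45, 7.57, 0.676 and 4.23 CPM in WT fed mice (CPM normalised over all 32 mice). Fasted mice lay above fed mice in both genotypes, and the fed WT mice reached higher than the fed KO mice (log2 difference 3.97, SE 0.93, adjusted p = 0.982). Rab5b, a GTPase of early endosomes, had 11.1, 11.2, 19.2 and 17 CPM in KO fasted mice, 38.5, 25.5, 27.4 and 35.1 CPM in KO fed mice, 31.2, 40.9, 18.3 and 25 CPM in WT fasted mice and 20.4, 10.1, 18.6 and 14.3 CPM in WT fed mice. It was lower in every fasted than in any fed KO mouse, with the opposite order of the group means in WT (log2 difference -1.98, SE 0.41, adjusted p = 0.642). The other 3 were B3galt1, a galactosyltransferase (log2 difference 2.66, SE 0.64, adjusted p = 0.982), Zfp386, a zinc finger protein (difference 1.86, SE 0.48, adjusted p = 0.982), and Acta2, smooth muscle actin (difference 2.53, SE 0.68, adjusted p = 0.982).

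The second comparison set the fasting effect of KO mice on LFD against that of KO mice on HFD. KO HFD fasted mouse 4 was left out, because its hepatocyte markers summed to 854 CPM and its heart markers to 32141 CPM, which left 15 mice. KO HFD fed mouse 1, which was kept, also held transcripts of other tissues. Its acinar pancreas markers summed to 2568 CPM and its skeletal muscle markers to 1119 CPM, against at most 38.2 and 26.2 CPM in the other 3 fed mice of the group, and its adrenal medulla markers had 69 counts, with 16 in fed mouse 2. Their part in the result was not tested, and 22 genes passed without fed mouse 1. Of 10934 genes 33 differed (0.302%), 10 with a higher (0.0915%) and 23 with a lower (0.21%) fasting effect on LFD, and 1007 had an unadjusted p below 0.05. With KO HFD fasted mouse 4 kept in, 0 genes passed and 738 had an unadjusted p below 0.05. Each of the 33 calls thus rests on leaving KO HFD fasted mouse 4 out. Leaving out one further mouse gave 15 to 80 calls. The count was 15 without KO HFD fasted mouse 1, 18 without KO HFD fed mouse 2, 19 without KO HFD fasted mouse 3, 66 without KO LFD fasted mouse 3 and 80 without KO LFD fasted mouse 1, and it was 57 without both mice with adrenal RNA. In KO HFD mice alone 34 of 10401 genes were higher (0.327%) and 52 lower (0.5%) after fasting, 0.827% in all. The KO LFD mice are the same as above, so that their side of the difference is not a second measurement.

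All 32 of the 33 genes that entered both single fits had the larger absolute log2 fold change on LFD. They were chosen by a difference computed from the same mice, and the share over all genes tested on both diets was not computed. This count is therefore no separate result about these genes. Stard4 had 16, 16.9, 11.2 and 17.4 CPM in KO LFD fasted mice, 103, 106, 135 and 136 CPM in KO LFD fed mice, 61.4, 54.9 and 68.5 CPM in KO HFD fasted mice and 117, 104, 113 and 124 CPM in KO HFD fed mice (CPM normalised over all 32 mice, as are the values that follow). Its fed levels were alike, and the fasted HFD mice stopped well above the fasted LFD mice (log2 fold change -2.96 on LFD and -0.90 on HFD, difference -2.05, SE 0.25, adjusted p = 5.2e-04). Por had 315, 245, 363 and 407 CPM in KO LFD fasted mice, 24.6, 35.3, 28.4 and 39.8 CPM in KO LFD fed mice, 84.5, 154 and 133 CPM in KO HFD fasted mice and 57.4, 47.5, 42.7 and 43 CPM in KO HFD fed mice, with higher fed and lower fasted levels on HFD than on LFD (3.37 on LFD and 1.37 on HFD, difference 2.0, SE 0.31, adjusted p = 0.00624). Mat1a had 15338, 14422, 11312 and 17470.3 CPM in KO LFD fasted mice, 1521, 2049, 1795 and 2483 CPM in KO LFD fed mice, 4843, 7031 and 5337 CPM in KO HFD fasted mice and 2818, 2762, 3010.5 and 2330.1 CPM in KO HFD fed mice. Its 3 fasted HFD mice stood above the fed HFD mice but below each fasted LFD mouse (2.89 on LFD and 1.07 on HFD, difference 1.83, SE 0.28, adjusted p = 0.00515).

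Cyp17a1, the steroid hydroxylase, had 64.9, 112, 49 and 132 CPM in KO LFD fasted mice, 4.52, 5.53, 5.2 and 15.5 CPM in KO LFD fed mice, 16.2, 15.1 and 14.2 CPM in KO HFD fasted mice and 8.45, 16.1, 15.8 and 23.6 CPM in KO HFD fed mice. On LFD all 4 fasted mice, those without adrenal markers included, were above the fed mice, and on HFD the groups overlapped (3.52 on LFD and -0.08 on HFD, difference 3.60, SE 0.58, adjusted p = 0.0101). Hsd3b5 (-5.59 on LFD and -0.99 on HFD, difference -4.60, SE 0.56, adjusted p = 0.00145) and Nudt7 (-2.68 on LFD and -1.05 on HFD, difference -1.62, SE 0.26, adjusted p = 0.00816) had more negative fasting effects on LFD than on HFD, and Abca8a did as well (-2.90 on LFD and -0.28 on HFD, difference -2.62, SE 0.44, adjusted p = 0.0125). Mfsd2a (4.25 on LFD and 1.16 on HFD, difference 3.09, SE 0.51, adjusted p = 0.0125) and Plin5 (2.54 on LFD and 0.61 on HFD, difference 1.93, SE 0.35, adjusted p = 0.0132) had the larger positive effects on LFD. Isg15, an interferon-induced protein, had 5.34, 9.88, 5.32 and 7.49 CPM in KO LFD fasted mice, 17.1, 22.1, 15.6 and 17.4 CPM in KO LFD fed mice, 42.2, 35.3 and 51 CPM in KO HFD fasted mice and 29.6, 27.4, 20.3 and 20.4 CPM in KO HFD fed mice. It was lower in each fasted than in any fed mouse on LFD and higher on HFD, where its own effect did not pass (-1.34 on LFD and 0.81 on HFD, difference -2.13, SE 0.36, adjusted p = 0.0103). Its call within LFD was lost without fed mouse 2 (highest adjusted p = 0.0637) and without both mice with adrenal RNA (log2 fold change -1.22, adjusted p = 0.116), and the call of the difference was not.

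Of the 33 genes 6 were in the endoplasmic reticulum chaperone list, which has 21 members, and all 6 had the lower fasting effect on LFD. Over all 10934 genes 0.302% differed, and 23 of the 33 had the lower effect on LFD. Sdf2l1 had 1.33, 5.2, 10.6 and 4.73 CPM in KO LFD fasted mice, 80.1, 62.9, 25.3 and 63.8 CPM in KO LFD fed mice, 40.3, 13.7 and 22.9 CPM in KO HFD fasted mice and 18.3, 22.9, 20.9 and 29.4 CPM in KO HFD fed mice. Its fasted HFD mice overlapped the fed HFD mice, whereas the fasted LFD mice lay below all others (-3.44 on LFD and 0.16 on HFD, difference -3.60, SE 0.61, adjusted p = 0.0125). The fed levels differed too. Fed LFD mice 1, 2 and 4 lay above every HFD mouse that was kept, and the fed means were 58.0 CPM on LFD and 22.9 CPM on HFD. Pdia6 (-2.0 on LFD and -0.23 on HFD, difference -1.77, SE 0.32, adjusted p = 0.0132), Hsp90b1 (-1.21 on LFD and 0.27 on HFD, difference -1.48, SE 0.29, adjusted p = 0.0205), Hyou1 (-2.73 on LFD and -0.01 on HFD, difference -2.72, SE 0.55, adjusted p = 0.0264) and Dnajb11 (-1.31 on LFD and 0.17 on HFD, difference -1.48, SE 0.30, adjusted p = 0.0287) had the more negative effect on LFD as well. Their mean fed levels were also higher on LFD than on HFD. They were 641 and 482 CPM for Pdia6 and 1191 and 805 CPM for Hsp90b1. For Hyou1 they were 35.3 and 18.4 CPM, and for Dnajb11 163 and 96.6 CPM. Derl3, of protein export from this compartment (difference -5.61, SE 1.0, adjusted p = 0.0125), did not pass the count filter of the KO LFD test. It had 0.889, 1.04, 0 and 0 CPM in KO LFD fasted mice and 8.40, 13.6, 3.12 and 23.4 CPM in KO LFD fed mice. On HFD it had 3.57, 3.77 and 6.00 CPM in fasted mice and 2.82, 0.805, 2.73 and 0.971 CPM in fed mice. These members beyond the rule for named genes were chosen after their values were seen. The difference lost its call without KO LFD fed mouse 4 (highest adjusted p = 0.0522) for Hsp90b1, without KO LFD fasted mice 2 or 4 or fed mice 1 or 2 (highest adjusted p = 0.0725) for Hyou1, and without KO LFD fasted mouse 4 or fed mice 1, 2 or 4 (highest adjusted p = 0.0849) for Dnajb11. Serpina12 lost it without KO LFD fasted mouse 2, and Hyou1 (difference -2.75, adjusted p = 0.0545) and Dnajb11 (difference -1.56, adjusted p = 0.0541) without both mice with adrenal RNA.

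The calls of the difference also depended on single KO HFD mice. Without KO HFD fasted mouse 1, 19 of the 33 genes lost their call, among them Plin5, Insig1, Serpina12, Pdia6, Hsp90b1, Hyou1 and Dnajb11. Without KO HFD fasted mouse 3, 17 did, among them Mfsd2a, Plin5, Insig1, Serpina12, Hyou1 and Dnajb11. Without KO HFD fed mouse 2, 15 did, among them Serpina12, Hsp90b1, Hyou1 and Dnajb11. The omission of any other KO HFD mouse took 5 to 11 calls, among them those of Hyou1, Dnajb11, Hsp90b1 and Serpina12. With each of the 15 mice left out in turn, 11 genes kept their call in every omission, namely Stard4, Por, Mat1a, Cyp17a1, Hsd3b5, Nudt7, Abca8a, Isg15, Sdf2l1, Derl3 and Ifit3b.

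**Figure D5:**
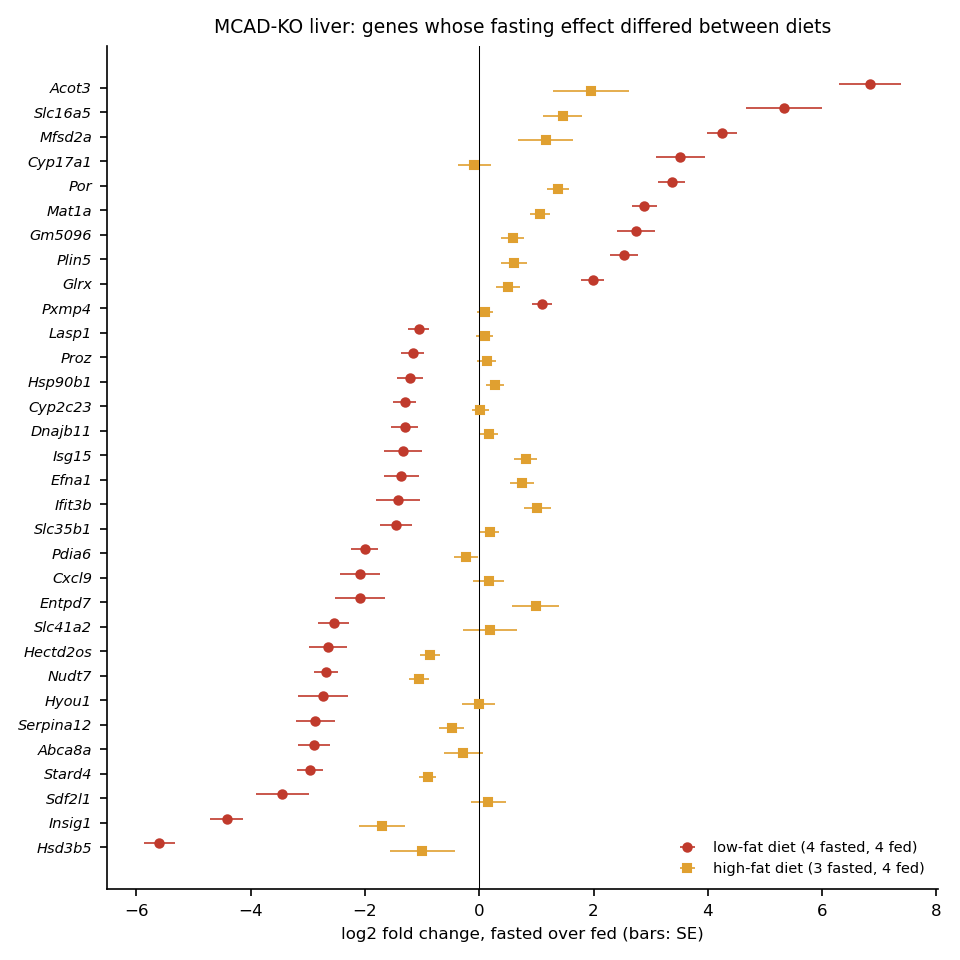
Log2 fold change (fasted over fed) with its SE on LFD (red circles) and on HFD (yellow squares) in KO mice, for 32 of the 33 genes whose effect differed. The circle lies farther from 0 than the square for each of the 32 genes, as for Stard4 with -2.96 on LFD and -0.90 on HFD. The genes were chosen by this difference, and the share over all genes was not computed.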

How the data were processed

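RNA from crushed, freeze-clamped liver was extracted with Trizol, and libraries were made by the submitters with the Lexogen QuantSeq 3′ mRNA kit. The authors deposited raw read counts per Ensembl gene (20076 genes, 32 libraries). Their processing notes name HISAT 0.1.5, SAMtools 1.2 and HTSeq 0.6.1p1. The strand setting of counting is not given in the sources used here. Identifiers without a symbol in GENCODE vM21 (158, with 0.115% of counts) kept their Ensembl name, and coordinates are those of GRCm38. Reads with the 3′ end of a transcript do not cover the whole gene, and whether the Acadm tag lies in the deleted part is not given in the sources used here.

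Counts of the 8 mice were filtered (filterByExpr), TMM-normalised and tested with edgeR 4.0.16 (R 4.3.3), by robust quasi-likelihood fits and Benjamini-Hochberg adjustment over all genes tested, at 0.05. The difference of fasting effects was an interaction term in one fit over 16 or 15 mice. Alternatives used DESeq2 1.42.0, limma 3.58.1, other scaling, no filter, sequencing lane, replicate block, age, wider models and omitted mice. The tests were tested on simulated data. Group labels do not say whether the mice came from separate litters or days. The p-values set the difference of groups against the spread between these mice, and cannot account for litter or day.

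The members and the gene lists were chosen with earlier results of these data known. Named were Acadm, the called genes without overlap between groups that led by p (at most 10 each way) or by size of change (at most 5 each way), up to 6 called and 3 uncalled members of a list, at most 5 genes each way for a difference, a set of defining pathway genes and the marker genes. Genes outside this rule are said to be named after their values were seen. Some list members are counted and not reported here by name.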

Additional observations from a re-analysis of the deposited data

Results flagged for a closer look

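Of 410 groups of 4 values examined (genes and marker sums named here, fasted and fed apart), 27 held a mouse far from the other 3 (6.59%), against about 1 in 20 by chance. CPM are given. Fasted mouse 1 was high for Hsp90ab1 (3684), mt-Nd2 (41061), Ifit3b (6.90), the Kupffer cell and macrophage marker sum (566) and the erythroid marker sum (1297), and low for Klf15 (58.3) and Efna1 (9.93). Fasted mouse 2 was low for St3gal5 (536) and high for Acot4 (42.0). Fasted mouse 3 was high for Gclc (308) and Chrna4 (0.518, 1 count) and low for Cyp4a10 (1418). Fasted mouse 4 was high for Fgf21 (99.9) and the heart marker sum (22.1), and low for Gstm3 (0.384).

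Among fed mice, mouse 1 was low for Aass (221) and Acaa1a (50.5) and high for Gm15441 (0.631, 2 counts). Fed mouse 2 was high for Cyp4a14 (606), Eci2 (130.0) and Nudt7 (1289), and low for Insig2 (651). Fed mouse 3 was low for Acot4 (4.06) and high for the skeletal muscle marker sum (19.7). Fed mouse 4 was high for Cyp51 (279.8), Cyp17a1 (15.2) and E030018B13Rik (0.619, 1 count).

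The fasting effect differed between KO LFD and KO HFD for 33 genes by the test of the difference (adjusted p below 0.05, 15 mice). Of those named in the report, the difference of log2 fold changes (LFD minus HFD) was 4.89 for Acot3, 3.60 for Cyp17a1, 3.09 for Mfsd2a, 2.0 for Por, 1.93 for Plin5 and 1.83 for Mat1a. It was -5.61 for Derl3, -4.60 for Hsd3b5, -3.60 for Sdf2l1, -2.72 for Hyou1, -2.71 for Insig1, -2.62 for Abca8a, -2.38 for Serpina12, -2.13 for Isg15, -2.05 for Stard4, -1.77 for Pdia6, -1.62 for Nudt7, -1.48 for Hsp90b1 and -1.48 for Dnajb11. Among genes named under the other observations, it was -2.44 for Ifit3b, -2.26 for Cxcl9, -2.1 for Efna1, -2.73 for Slc41a2, -1.15 for Lasp1 and -1.32 for Cyp2c23. The call of Acot3 was lost in 9 of the 15 omissions of one mouse (highest adjusted p = 0.122). Acot3 had 0 to 1.04 CPM in KO LFD fed mice and Derl3 0 to 1.04 CPM in KO LFD fasted mice, which leaves the size of both differences uncertain.

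The adrenal medulla markers lay outside the genes tested. They had 79 counts in fasted mouse 3 and 132 in fasted mouse 4, and 0 counts in the 4 fed mice.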

How the results depend on the processing

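The 759 calls of the fasting effect stayed within 1.5 times in 18 of 20 alternatives. They were 1442 in the fit over all 8 groups less KO HFD fasted mouse 4, 109 with the mice of lane 7 alone (5 of 8), and 523 to 1067 with one mouse left out. DESeq2 called 1007 genes. Against WT LFD, 0 genes passed in each of 24 alternatives (0 to 0 with one mouse left out). Against KO HFD, the 33 calls stayed within 1.5 times in 14 of 23 alternatives, with 147 by DESeq2, 55 without the count filter, 57 without both mice with adrenal RNA, 0 with KO HFD fasted mouse 4 kept, and 15 to 80 with one mouse left out. The cause was not tested. Of 154 called genes named here 54 passed in all alternatives and 107 in all but at most 2, and 0 named values changed sign. Of 1980 counts and medians of lists, 283 moved.

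The labels do not say whether the replicate numbers pair the mice. The correlations of same-numbered residuals were 0.0220 to 0.0845 and those of different numbers -0.101 to 0.0676. Not every mouse correlated best with its own number, but so few values cannot exclude a pairing. With the replicate block 707 genes were called for the fasting effect, 0 against WT LFD and 30 against KO HFD.

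Depth limits low genes, whose fed or fasted counts near 0 leave the fold uncertain. With 4 mice a group, the smallest p of an exact permutation test of a single gene is 0.0286.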

Other observations

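Besides Isg15, the genes whose fasting effect differed between KO LFD and KO HFD included a second interferon-induced gene and a chemokine. Ifit3b had 7.11, 4.16, 4.26 and 3.94 CPM in KO LFD fasted mice, 11.3, 8.93, 12.1 and 19.3 CPM in KO LFD fed mice, 26.6, 31.9 and 21 CPM in KO HFD fasted mice and 15.1, 13.3, 13.9 and 9.71 CPM in KO HFD fed mice. The fasted mice lay below the fed mice on LFD, with the opposite order of the group means on HFD (log2 fold change -1.42 on LFD and 1.02 on HFD, difference -2.44, SE 0.44, adjusted p = 0.0125). Cxcl9, a chemokine that interferon-γ induces, had 5.78, 3.38, 7.45 and 5.92 CPM in KO LFD fasted mice, 25.5, 20.8, 16.3 and 30 CPM in KO LFD fed mice, 17.5, 25 and 19.9 CPM in KO HFD fasted mice and 21.1, 9.66, 23.3 and 19.1 CPM in KO HFD fed mice (log2 fold change -2.08 on LFD and 0.17 on HFD, difference -2.26, SE 0.44, adjusted p = 0.0215). The call of Cxcl9 was lost without KO LFD fed mice 1 or 4 or KO HFD fasted mice 2 or 3 (highest adjusted p = 0.0630). Both genes, and those that follow, were chosen after their values were seen.

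The effect also differed for Cyp2c23, an arachidonic acid epoxygenase (-1.31 on LFD and 0.02 on HFD, difference -1.32, SE 0.25, adjusted p = 0.0190), Slc41a2, a magnesium transporter (-2.55 on LFD and 0.19 on HFD, difference -2.73, SE 0.49, adjusted p = 0.0166), Lasp1, an actin-binding protein (-1.06 on LFD and 0.09 on HFD, difference -1.15, SE 0.21, adjusted p = 0.0149), and Efna1, an ephrin (-1.36 on LFD and 0.75 on HFD, difference -2.1, SE 0.40, adjusted p = 0.0188). The difference of Slc41a2 lost its call without both KO LFD mice with adrenal RNA (adjusted p = 0.0705), and the other 3 kept theirs. Without KO HFD fasted mouse 1 all 4 lost it, as did Cyp2c23 without KO HFD fasted mouse 2 or fed mice 1 or 2 and Efna1 without KO HFD fasted mouse 3 or fed mice 2 or 3.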
